A study of Mus musculus with 26 samples.

Results

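The comparison described here set YFP-negative liver cells of mice fed the DDC diet for 14 days against liver cells of untreated mice. Its members were chosen by their labels: 3 arrays of YFP-negative cells at day 14 and 2 arrays of day 0 cells, 5 of the 26 samples of the series. The other two day 0 samples of the 4 listed are not analysed here.

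All mice carried Foxl1-Cre and the RosaYFP reporter, which marks with yellow fluorescent protein (YFP) each cell in which the Foxl1 promoter has driven Cre, and the offspring were 6 to 10 weeks old. The day 14 cells were non-parenchymal cells, negative for CD45 and without YFP, sorted from mice after 14 days on DDC (diethoxycarbonyl-dihydrocollidine). The day 0 cells were total non-parenchymal cells of chow-fed mice of the same genotype, taken without the CD45 and YFP gates. CD45, the product of Ptprc, is the surface protein of leukocytes, so diet and gate changed together in every value below and cannot be told apart. The labels do not say whether the arrays of a group came from separate animals or from pools, so the p-values measure only the spread between these samples.

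DDC blocks ferrochelatase, the last step of heme synthesis, and porphyrin then plugs small bile ducts. The feeding model is known for cholestatic injury, an expansion of duct-like cells and fibrosis around the portal tracts. The non-parenchymal fraction of the liver holds sinusoidal endothelial cells, Kupffer cells, stellate cells and lymphocytes. Stellate cells store retinyl esters while quiescent and make collagen once activated.

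Levels are log2 values of the processed signal minus the 75th percentile of the same array, so 0 is that percentile and low values are dim probes. On the 5 arrays 82.3% to 91.2% of spots were well above background. The levels of the genes tested, 1 probe per gene, correlated at 0.928 between the day 0 arrays. They correlated at 0.925 to 0.951 among the day 14 arrays and at 0.893 to 0.934 between the groups. Over all 26647 genes tested the median log2 difference, day 14 minus day 0, was −0.39, and with median scaling in place of the 75th percentile it was 0.02. A difference of a gene or list is read beside that shift. The tests came from limma on 20 arrays of 7 groups, with Benjamini-Hochberg adjustment over all genes and a threshold of 0.05.

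The main features were few named genes past the adjusted threshold and a broad set of mesenchymal, antioxidant and chemokine genes whose day 14 arrays all lay above the day 0 arrays. Lrg1 and Plaur rose. Stellate cell genes such as Lrat and Reln, matrix genes such as Postn and Lum, and glutathione transferases such as Gsta1 were higher on all 3 day 14 arrays, without passing the adjusted threshold. Interferon-induced genes such as Oasl2 and Ifi44 were lower on all 3 day 14 arrays, also without passing it. So were 11 of 20 lymphocyte markers, against 29.4% of all genes, but only 5 of them after quantile normalization, against 17.3%. Olfactory receptor genes, mostly dim probes, were lower on all 3 day 14 arrays as often, in 509 of 845.

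Of 26647 genes, 2 passed the adjusted threshold as higher at day 14 (0.00751%) and 7 as lower (0.0263%). At an unadjusted p under 0.05, 643 genes were higher (2.41%) and 2430 were lower (9.12%). The arrays of the groups did not overlap, with day 14 higher, for 13.0% of 26572 genes that had a value on every array, and with day 14 lower for 29.4%. After quantile normalization these shares were 15.8% and 17.3%. They are the background for each count of list members given below. No member of the 24 lists of cell types and processes passed the adjusted threshold, so list members are given by level, by the count at an unadjusted p under 0.05 and by whether arrays overlapped.

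Lrg1, which encodes a secreted leucine-rich glycoprotein of the acute phase, stood at 2.44 and 1.79 on the day 0 arrays and at 4.72, 5.16 and 5.42 on the day 14 arrays. Every day 14 array lay more than 2 log2 units above the higher day 0 array. The log2 difference was 2.99 ± 0.43 (SE; limma, adjusted p = 0.0146), or 7.92-fold. Its probe lies at chr17:56259257-56259316 of mm9, the build named in the file headers. In the authors' deposited table the fold change of Lrg1 was 8.128, at a false discovery rate of 2.85%.

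Plaur, the receptor of urokinase-type plasminogen activator, stood at −2.84 and −1.75 at day 0 and at 1.06, 1.58 and 1.51 at day 14. The groups did not overlap, and the day 14 arrays lay close together. The log2 difference was 3.68 ± 0.58 (SE; limma, adjusted p = 0.0373), or 12.8-fold, with the probe at chr7:25260569-25260628. Both probes of Plaur were higher at day 14. Lrg1 and Plaur each passed in 7 of 16 alternative settings and were higher in all 16. Without day 0 array 1 limma called 0 genes higher (280 at an unadjusted p under 0.05), and without day 14 array 3 it also called 0 (609 at that p).

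Among the 10 rises with the smallest p, counting genes with a gene name, the remaining 8 did not pass the adjusted threshold. Serpina3n, a serine protease inhibitor of the acute phase, stood at −1.5 and −0.28 at day 0 and at 3.72, 4.70 and 4.26 at day 14. Its log2 difference was 5.12 ± 0.92 (SE; limma, adjusted p = 0.0698), and the authors' deposited table gave a fold change of 116.515 at a false discovery rate of 2.85%. Every day 14 array lay far above both day 0 arrays.

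Steap4 and Steap1 belong to a family of membrane proteins whose members include metalloreductases of iron and copper. Steap4 stood at −4.06 and −2.43 at day 0 and at 1.33, −0.05 and 0.33 at day 14, a log2 difference of 3.78 ± 0.66 (SE; limma, adjusted p = 0.0652). Steap1 stood at −6.31 and −5.08 at day 0 and at −1.73, −0.11 and −1.47 at day 14, a difference of 4.60 ± 0.82 (SE; limma, adjusted p = 0.0698). Map3k6, a kinase of the stress-activated cascade, stood at −1.45 and −0.01 at day 0 and at 2.42, 3.10 and 3.17 at day 14 (difference 3.63 ± 0.68, SE; limma, adjusted p = 0.0805). All 3 genes had day 14 arrays above both day 0 arrays.

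Gsta2, an alpha-class glutathione transferase, varied widely between the arrays of each group. It stood at −7.36 and −1.83 at day 0, well above background on 1 of those arrays, and at 4.03, 3.50 and 0.85 at day 14. The log2 difference was 7.39 ± 1.40 (SE; limma, adjusted p = 0.0908), and it rests in part on the day 0 array that was not well above background. Without that array it was 4.63 (limma, adjusted p = 0.998), and without the other day 0 array it was 10.16 (limma, adjusted p = 0.0101). Lrat, also among the 10, is described with the stellate cell genes.

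**Figure D1:**
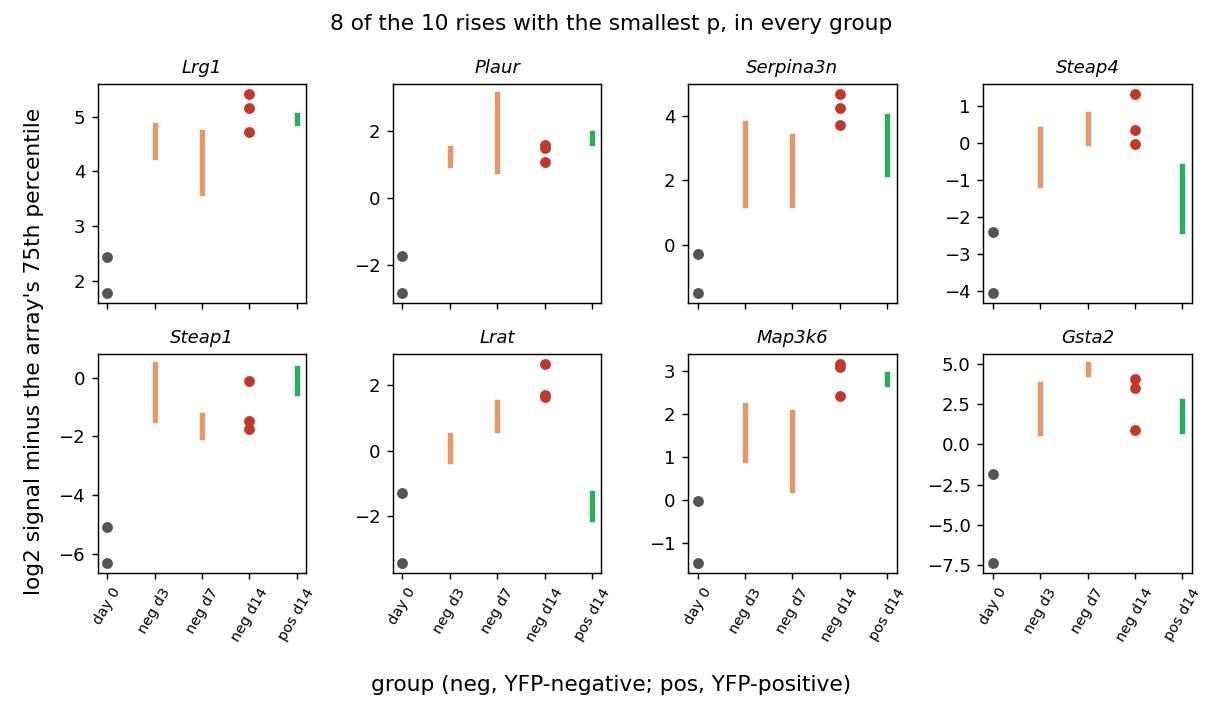
Levels of 8 of the 10 rises with the smallest p (vertical axes, log2 signal minus the array's 75th percentile) in each group; points are single arrays of day 0 and of YFP-negative day 14, and bars span the lowest to the highest array of YFP-negative day 3 and day 7 and of YFP-positive day 14. Lrg1 at day 14 lay between 4.72 and 5.42 against 1.79 and 2.44 at day 0, and Lrat in YFP-positive cells at day 14 lay between −2.07 and −1.29.

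Lrg1, Plaur and Lrat had these levels at the earlier times and in the YFP-positive cells of day 14. These comparisons share the day 0 arrays with the one described, so their values are given side by side only. Lrg1 differed from day 0 by 2.49 ± 0.43 at day 3 and by 2.17 ± 0.43 at day 7 in YFP-negative cells, and by 2.85 ± 0.47 in YFP-positive cells at day 14. Plaur differed by 3.61 ± 0.58 at day 3, by 4.2 ± 0.58 at day 7 and by 4.09 ± 0.63 in YFP-positive cells at day 14. Lrat differed by 2.41 ± 0.80 at day 3, by 3.39 ± 0.80 at day 7 and by 0.67 ± 0.88 in YFP-positive cells at day 14 (all log2, ± SE).

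The 16 members of the stellate cell list had a median log2 difference of 2.13, against −0.39 over all genes, and with slide as a fixed block the median was 1.47 against −0.24. Of the 16, 14 had all day 14 arrays above both day 0 arrays. At an unadjusted p under 0.05, 9 were higher and 0 lower, and without day 0 array 1 the number higher was 3. The mean level of the list was −1.27 and −0.55 on the day 0 arrays and 1.98, 0.94 and 1.34 on the day 14 arrays. In bulk samples, a change in the number of cells of a type and a change in RNA per cell cannot be told apart.

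Lrat, the enzyme that esterifies retinol for storage, stood at −3.43 and −1.28 at day 0 and at 2.66, 1.65 and 1.69 at day 14. The difference was 4.35 ± 0.80 (SE; limma, adjusted p = 0.0799). The groups were separate and both probes of Lrat ran the same way.

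Reln, an extracellular glycoprotein of stellate cells, stood at −1.54 and 0.43 at day 0 and at 3.31, 2.07 and 3.01 at day 14 (difference 3.35 ± 1.27, SE). Colec11, a secreted lectin, stood at −0.10 and 1.40 and then at 4.60, 3.72 and 4.30. The transcription factor gene Lhx2 stood at −4.17 and −2.01 and then at 1.86, 0.39 and 0.83. Hgf, the growth factor for hepatocytes that binds Met, stood at 1.69 and 2.16 and then at 4.11, 3.79 and 3.18. In each of these genes all day 14 arrays lay above both day 0 arrays, at unadjusted p between 0.0105 and 0.0267 (limma) and adjusted p between 0.402 and 0.414.

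Ngfr, the low-affinity neurotrophin receptor, stood at −1.80 and −2.51 at day 0 and at 2.28, 0.69 and 1.22 at day 14, but 1 of its 2 probes did not share the direction. Pdgfrb, the receptor of platelet-derived growth factor on mesenchymal cells, stood at −0.12 and 0.43 and then at 2.90, 1.29 and 2.51. Its groups did not overlap, while its SE over the 7 groups was 2.07 and its unadjusted p was 0.332 (limma). Gfap, a filament protein of astrocytes and of stellate cells, was the exception of the list. It stood at −3.89 and −3.90 at day 0 and lower, at −4.98, −5.59 and −4.42, at day 14.

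**Figure D2:**
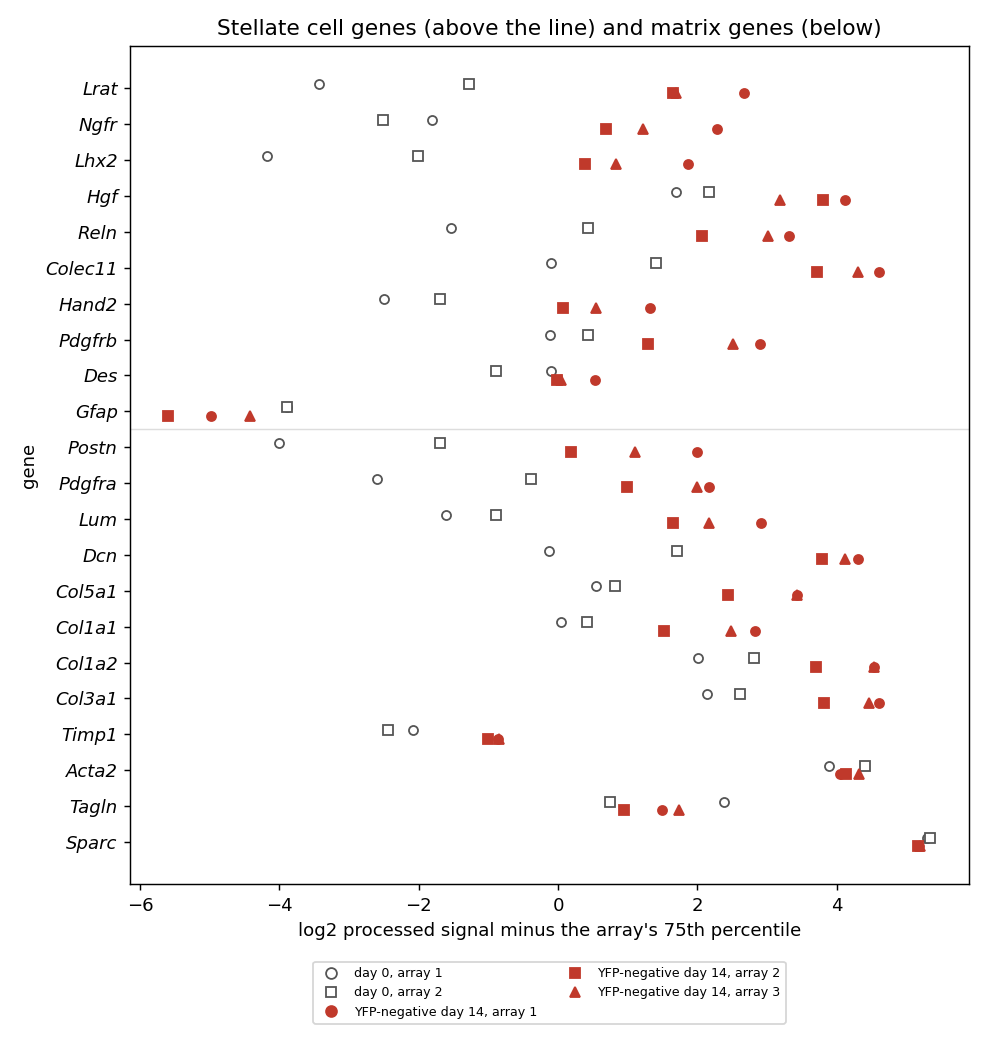
Level of selected stellate cell genes (above the line) and matrix genes (below it) on each array (horizontal axis, log2 processed signal minus the array's 75th percentile); open symbols are day 0 and filled symbols YFP-negative day 14. Lrat lay at −3.43 and −1.28 on the day 0 arrays and between 1.65 and 2.66 at day 14, while Acta2, Tagln and Sparc lay within or just below the day 0 range.

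Of 24 matrix and myofibroblast genes, 15 had all day 14 arrays above both day 0 arrays and 1 had all below, with a median log2 difference of 1.78. At an unadjusted p under 0.05, 7 were higher and 0 lower. The number higher fell to 1 without day 0 array 1, to 3 without day 0 array 2 and to 2 without day 14 array 3. The mean level of the list was −0.71 and −0.32 at day 0 and 1.45, 0.52 and 1.42 at day 14.

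Postn, a matricellular protein of fibroblasts, stood at −4.01 and −1.70 at day 0 and at 1.99, 0.19 and 1.1 at day 14 (difference 3.95 ± 1.40, SE; limma, adjusted p = 0.403). Pdgfra, a growth factor receptor of fibroblasts, stood at −2.60 and −0.39 and then at 2.17, 0.98 and 1.99. Lum, a proteoglycan that binds collagen fibrils, stood at −1.61 and −0.89 and then at 2.92, 1.64 and 2.16. In all 3 genes the day 14 arrays lay above the day 0 arrays. Timp1, an inhibitor of matrix metalloproteinases, stood at −2.09 and −2.44 and then at −0.86, −1.01 and −0.85, a difference of 1.36 ± 0.58 (SE).

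The fibrillar collagens were separate between the groups but varied widely over the series. Col1a1 stood at 0.05 and 0.42 at day 0 and at 2.83, 1.52 and 2.48 at day 14. Its log2 difference was 2.05 ± 1.87 (SE; limma, unadjusted p = 0.292). Col3a1 stood at 2.14 and 2.62 and then at 4.61, 3.81 and 4.47, and Col1a2 at 2.01 and 2.81 and then at 4.53, 3.71 and 4.53. In YFP-positive cells of day 14 Col1a1 lay between −7.60 and −6.06.

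Cthrc1, a secreted protein of activated fibroblasts, was not well above background on either day 0 array and was so on all 3 day 14 arrays, at −6.07, −5.90 and −4.45. It was at least 4.84-fold higher, a bound that sets the day 14 mean against the lowest signal among probes well above background on the day 0 arrays, or the probe's own signal where that was higher. The bound holds for the processed signal: on the log2 scale it is 2.27, while after normexp background correction the difference of Cthrc1 was 0.27. That correction added an offset of 50 to every signal, which shrinks differences between dim probes here and below. It therefore cannot decide the size of such a bound. The contractile genes did not follow. Acta2, smooth muscle actin, stood at 3.89 and 4.40 at day 0 and at 4.05, 4.13 and 4.31 at day 14, a log2 difference of 0.02 (95% interval −0.72 to 0.75). Its 5 probes did not share a direction. Tagln, transgelin, stood at 2.38 and 0.74 and then at 1.49, 0.95 and 1.74, within the day 0 range. Sparc, a collagen-binding glycoprotein, stood at 5.29 and 5.34 and then at 5.18, 5.17 and 5.19.

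Portal fibroblast and mesothelial genes gave a mixed picture. Of 12, 4 were higher and 2 lower on all day 14 arrays, and the median difference was 0.32. Msln, mesothelin, stood at −0.76 and −0.67 at day 0 and at 1.48, 0.33 and 1.80 at day 14. Pi16, a protein of adventitial fibroblasts, stood at −1.65 and −2.58 and then at −1.07, −0.63 and −0.99 (unadjusted p = 0.0267, limma). Gas6, a ligand of the Axl receptor family, was on the low side, at 5.30 and 4.89 and then at 4.66, 4.47 and 4.80.

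Markers of the gated and ungated cell types were set beside these lists. Sinusoidal endothelial genes had a mean level of 4.02 and 4.03 at day 0 and 4.06, 3.84 and 2.99 at day 14. Of 18, 8 were lower on all day 14 arrays, 0 were higher and the median difference was −0.36, against −0.39 over all genes. Under median scaling 0 of the 18 were lower and the median was 0.044, against 0.017 over all genes, and with slide as a fixed block it was 0.19. Stab2, a scavenger receptor of the sinusoid, stood at 4.61 and 4.80 at day 0 and at 4.2, 4.15 and 2.39 at day 14. Clec4g, a lectin of the same cells, stood at 5.53 and 5.61 and then at 5.76, 5.76 and 4.53. Day 14 array 3 was the lowest of the 5 in both genes.

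Markers of large vessels and of all endothelium had a median difference of 0.09 over 21 genes, with 5 higher and 3 lower on all day 14 arrays. Their mean level was 1.84 and 1.79 at day 0 and 2.02, 2.09 and 2.33 at day 14. Selp, P-selectin, stood at 0.24 and −1.0 at day 0 and at 1.80, 2.34 and 3.43 at day 14 (difference 2.91 ± 1.21, SE; limma, unadjusted p = 0.0289). Vcam1, which binds leukocytes, stood at 2.66 and 2.78 and then at 3.30, 3.20 and 3.86, and Icam1 at 1.44 and 1.72 and then at 2.15, 2.14 and 2.57. These 3 adhesion genes were higher on all day 14 arrays. Plvap, a protein of endothelial diaphragms, stood at 1.71 and 2.53 and then at 3.20, 3.56 and 3.80.

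The day 0 arrays differed from each other in leukocyte genes. Day 0 array 2 had the lower mean level in the Kupffer cell list (1.13 and −1.16), the lymphoid list (−2.29 and −3.91), the dendritic list (−1.31 and −3.06) and the neutrophil list (−2.17 and −5.75). S100a8, a calcium-binding protein of neutrophils, stood at 0.12 and −8.00 at day 0 and at 0.76, 0.08 and 0.82 at day 14. Ptprc, the CD45 gene that the day 14 gate selected against, stood at 1.51 and −1.79 at day 0 and at −0.83, −1.66 and 0.83 at day 14. It overlapped between the groups and was well above background on all 5 arrays.

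Of 20 lymphoid genes, 11 were lower on all day 14 arrays and 0 higher, with a median difference of −1.60. The 845 olfactory receptor genes, a dim family described below, had a median of −1.59 with 509 lower. With slide as a fixed block the medians were −2.60 for the lymphoid and −1.28 for the olfactory receptor list. After quantile normalization they were −0.96 and −0.59. The olfactory receptor list was dimmer and was added after the values were seen. Whether the fall was particular to leukocyte genes was not tested. At an unadjusted p under 0.05, 3 were lower, against 9.12% of all genes, and 0 were lower without day 0 array 1. Cd3e, a chain of the T cell receptor complex, stood at −1.69 and −4.77 at day 0 and at −5.27, −6.12 and −5.87 at day 14. Prf1, perforin, stood at −4.69 and −4.94 and then at −7.12, −7.79 and −6.57 (difference −2.34 ± 0.81, SE). Cd4, the co-receptor of helper T cells, stood at −2.41 and −2.50 and then at −3.30, −4.43 and −3.10. After quantile normalization 5 of the 20 were lower on all day 14 arrays and the median was −0.96. The median was −1.04 after normexp correction, −0.92 without day 0 array 1 and −2.43 without day 0 array 2. In the last case 18 of the 20 were lower, as were 11475 of all genes.

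Of 13 dendritic and MHC class II genes, 6 were lower on all day 14 arrays and 0 higher, with a median of −1.56. After quantile normalization 2 were lower, with a median of −0.60. The olfactory receptor genes had medians of −1.59 before it and −0.59 after it. The median was −1.02 after normexp correction and −0.95 without day 0 array 1. Ccr7, the receptor that guides cells to lymph nodes, stood at −1.99 and −6.44 at day 0 and at −7.35, −8.45 and −8.07 at day 14, where 1 of 3 arrays was well above background. The Kupffer cell list had a median of −0.78, with 2 of 20 lower and 1 higher. Timd4, a receptor of resident macrophages, stood at 0.28 and −2.23 and then at −3.84, −5.43 and −2.58. Clec4f, a lectin of Kupffer cells, overlapped, at 3.27 and 0.72 and then at 0.43, −1.66 and 0.75. The median of the Kupffer cell list was −1.58 without day 0 array 2, with 14 genes lower, and −0.06 without day 0 array 1, with 7 higher. Over all genes 11475 were lower in the former setting and 5335 higher in the latter.

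None of the 12 neutrophil genes and none of the 12 erythroid genes kept the groups apart. The neutrophil median was 1.34, and it was 2.73 without day 0 array 1 and −0.15 without day 0 array 2. Without day 0 array 1, 7 of the 12 were higher on all day 14 arrays, as were 5335 of all genes. The erythroid mean level ranged from −3.90 on day 14 array 3 to 1.88 on day 14 array 2, and the erythroid median of −0.68 lay between −2.12 and 1.53 when 1 array was left out. Platelet genes had a median of −0.51 over 9 genes, and of 0.47 after quantile normalization.

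**Figure D3:**
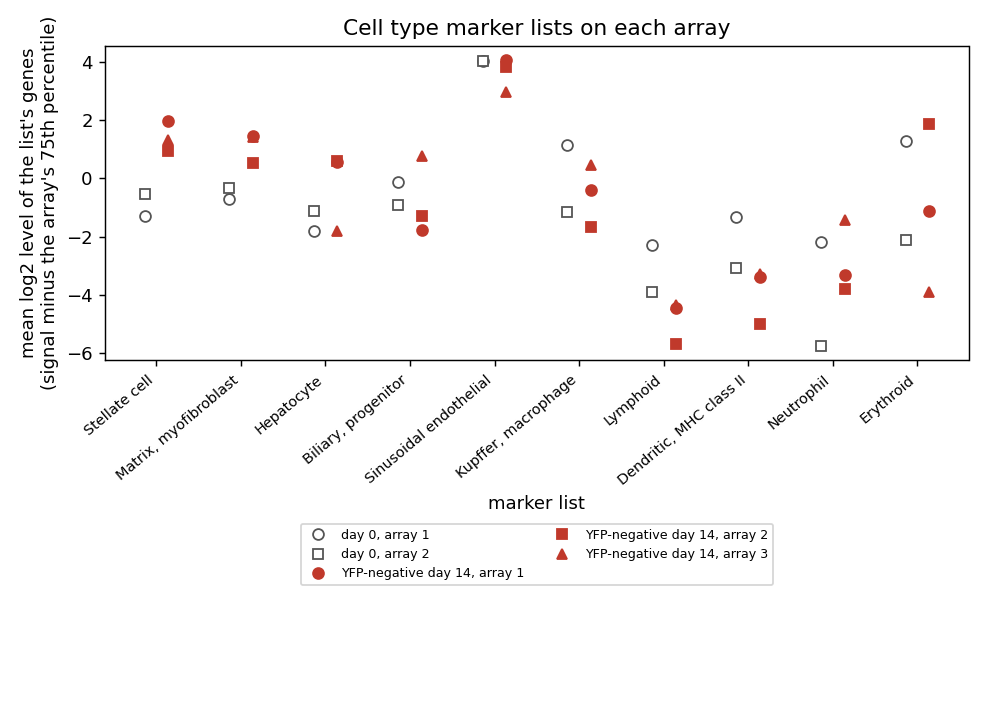
Mean log2 level of each cell type list (vertical axis, signal minus the array's 75th percentile) on the 2 day 0 arrays (open) and the 3 YFP-negative day 14 arrays (filled). Stellate and matrix lists lay higher on every day 14 array, the lymphoid and dendritic lists lay lower, and the other 6 lists plotted overlapped.

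Markers of the epithelial cells of the liver were present in both groups. Of 21 hepatocyte genes, 7 were higher on all day 14 arrays and 1 was lower, with a median difference of 1.46. Without day 14 array 3, 18 were higher, as were 5524 of all genes, and the median was 2.16. Without day 14 array 2 the median was 0.97. The list mean was −1.82 and −1.13 at day 0 and 0.57, 0.59 and −1.80 at day 14, so day 14 array 3 stood with the day 0 arrays. Fgb, the beta chain of fibrinogen, stood at 2.53 and 2.06 and then at 4.39, 4.34 and 3.44 (difference 1.77 ± 0.62, SE; limma, unadjusted p = 0.0125). Hpx, hemopexin, which carries free heme in plasma, stood at −2.95 and −0.81 and then at 2.24, 2.18 and −0.19. Alb, albumin, overlapped, at 4.42 and 3.81 and then at 4.69, 4.69 and 3.36.

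No gene of the 22 biliary and progenitor markers kept the groups apart over all 5 arrays, and their median difference was −0.25. Without day 14 array 3, 15 of the 22 were lower on both remaining day 14 arrays, as were 10897 of all genes, and the median was −1.03. The list mean was −0.11 and −0.91 at day 0 and −1.77, −1.28 and 0.78 at day 14. Sox9, a transcription factor of duct cells, stood at 2.38 and 1.89 and then at 0.40, 0.92 and 2.65. Epcam, a surface adhesion protein of duct cells, stood at 1.75 and 1.24 and then at −0.81, 0.76 and 3.20. In both genes day 14 array 3 was the highest of the 5 arrays and day 14 array 1 the lowest.

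The antioxidant list holds genes that the transcription factor NRF2 is known to activate. Of 19, 14 were higher on all day 14 arrays and 0 lower, with a median difference of 0.96. At an unadjusted p under 0.05, 8 were higher, and 4 to 8 were when any 1 of the 5 arrays was left out. With slide as a fixed block 3 were higher at that p, and the median was 0.76, against −0.24 over all genes. The list mean was 0.17 and −0.16 at day 0 and 1.54, 1.16 and 1.33 at day 14. The groups did not overlap in that mean.

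Among the glutathione transferases, Gsta1 stood at −1.05 and −0.34 at day 0 and at 4.11, 3.57 and 1.52 at day 14 (difference 3.76 ± 0.87, SE; limma, adjusted p = 0.195). Gsta4 stood at −3.36 and −3.29 and then at −0.57, −0.30 and −1.16 (difference 2.65 ± 0.89, SE). Gstm1 stood at 3.01 and 2.73 and then at 4.83, 4.63 and 3.65. Gsta1, Gsta2, Gsta4 and Gstm1 were lowest, among the day 14 arrays, on array 3, which also had the lowest hepatocyte mean, and the part of hepatocyte RNA in them was not tested. Gsta1 and Gsta2 are near-identical copies, so a probe may read both.

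Txnrd1, Gclc and Hmox1 were about as high on array 3 as on the other day 14 arrays. Nqo1 was highest on array 3, while Prdx1, given below, was lowest there. Array 3 also had the highest biliary mean of the day 14 arrays, and its part in Nqo1 was not tested. Nqo1, a quinone reductase, stood at 2.19 and 1.75 at day 0 and at 3.14, 3.40 and 4.34 at day 14 (difference 1.66 ± 0.59, SE; limma, adjusted p = 0.404). Txnrd1, thioredoxin reductase, stood at 3.69 and 3.92 and then at 4.63, 4.58 and 4.94, a small and even step of 0.91 ± 0.31 (SE). Gclc, the catalytic subunit of the first enzyme of glutathione synthesis, stood at 2.25 and 2.41 and then at 3.21, 3.24 and 3.28. Hmox1, heme oxygenase, stood at 0.84 and 0.94 and then at 2.60, 2.48 and 2.50. Its groups were far apart for their spread, while over all 7 groups its SE was 1.02 and its unadjusted p was 0.129 (limma).

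The 250 bases before the transcription start were read for this list from RefSeq sequences on GRCm38.p6, and 16 of the 19 genes had one. The core of the antioxidant response element, TGACNNNGC on either strand, was found in 5 of the 16, against 10.16% of 32851 promoters of that length. A gene was counted if any of its listed starts held a match, while the share is over single promoters, so the 2 are not on 1 footing. A match is a description of letters, not a bound site. Of the 8 members at an unadjusted p under 0.05, Txnrd1 and Prdx1 held a match, and they are printed because they are members higher at day 14 in which the letters can be seen. They were chosen after their values were seen. Capitals mark the match, which lies on the opposite strand in both, so the printed letters are its reverse complement.
Txnrd1, chr10:82858956-82859205, plus strand, the second of 3 listed starts, match GCTTTGTCA from base −92: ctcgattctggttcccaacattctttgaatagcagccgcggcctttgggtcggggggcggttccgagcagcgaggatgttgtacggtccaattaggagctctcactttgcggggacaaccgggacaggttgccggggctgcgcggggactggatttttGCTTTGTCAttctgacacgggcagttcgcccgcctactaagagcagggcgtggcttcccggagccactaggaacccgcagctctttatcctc
Prdx1, chr4:116685349-116685598, plus strand, match GCTGAGTCA from base −133: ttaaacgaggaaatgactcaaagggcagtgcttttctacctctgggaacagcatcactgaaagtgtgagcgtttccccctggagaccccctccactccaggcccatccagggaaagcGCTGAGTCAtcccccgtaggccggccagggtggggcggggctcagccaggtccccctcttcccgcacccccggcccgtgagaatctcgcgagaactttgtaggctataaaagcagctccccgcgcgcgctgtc
Prdx1, a peroxiredoxin that removes hydrogen peroxide, stood at 0.67 and 0.78 at day 0 and at 1.55, 1.85 and 1.24 at day 14, above day 0 on every array.

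Heme and iron genes were less uniform. Of 18, 6 were higher on all day 14 arrays and 1 lower, with a median difference of 0.63, and 2 were higher at an unadjusted p under 0.05. Without day 0 array 1, 13 were higher on all day 14 arrays, as were 5335 of all genes. Without day 14 array 2 the median was 0.35. The 2 were Steap4, given above, and Urod, the decarboxylase of uroporphyrinogen, at 1.56 and 1.34 at day 0 and 2.43, 3.31 and 1.79 at day 14. Alas1, the first enzyme of heme synthesis outside red cells, stood at −1.5 and −1.65 and then at −0.98, −0.49 and −1.08. Abcg2, an exporter of porphyrins, stood at 0.85 and 0.89 and then at 1.86, 2.28 and 2.22. Fech, the ferrochelatase that DDC blocks, overlapped, at 4.34 and 1.77 and then at 2.72, 3.02 and 2.05.

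Of 19 inflammatory genes and chemokines, 9 were higher on all day 14 arrays and 0 lower, with a median difference of 0.95. At an unadjusted p under 0.05, 6 were higher. Without day 0 array 2 it was 3, with a median of 0.52, and with slide as a fixed block 1, with a median of 0.48. Cxcl12, a chemokine of mesenchymal cells, stood at 1.14 and 2.44 at day 0 and at 4.53, 4.08 and 4.43 at day 14 (difference 2.56 ± 0.61, SE; limma, adjusted p = 0.219). Cxcl5, which attracts neutrophils, stood at −6.87 and −4.90 and then at −0.77, 0.06 and 1.19 (difference 6.04 ± 1.46, SE; limma, adjusted p = 0.222). Ccl2, which attracts monocytes, stood at −1.83 and −1.51 and then at −0.02, 1.01 and 1.86. In the authors' deposited table Cxcl5 had a fold change of 98.546 at a false discovery rate of 2.3%.

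Cxcl5, Ccl2, Il1rn and Lcn2 had the same order over the day 14 arrays, lowest on array 1 and highest on array 3. Lcn2, lipocalin, stood at −3.76 and −5.24 at day 0 and at −1.74, −1.26 and 0.22 at day 14. Il1rn, the antagonist of the interleukin 1 receptor, stood at −4.42 and −6.89 and then at −3.71, −2.48 and −0.29. Array 3 was also the highest day 14 array in the biliary list (0.78) and in the neutrophil list (−1.44), and their part was not tested. Tnf, Il6 and Ccl20, further cytokine genes of the list, overlapped between the groups.

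Of 19 interferon-induced genes, 9 were lower on all day 14 arrays and 0 higher, against 29.4% of all genes. After quantile normalization 10 were lower, against 17.3%, and the list median was −1.16 before it and −1.09 after it. Without day 14 array 3, 15 were lower, and under median scaling 6 were, with a median of −0.76. Over all genes 10897 and 4824 were lower in these 2 settings. Oasl2, of the oligoadenylate synthetase family, stood at 1.91 and 1.97 at day 0 and at 0.58, 0.34 and 0.75 at day 14 (difference −1.38 ± 0.37, SE; limma, adjusted p = 0.301). Ifi44 stood at 2.38 and 2.39 and then at 0.52, −0.56 and 0.63. Isg15, a ubiquitin-like modifier, stood at −0.96 and −0.44 and then at −2.13, −2.11 and −2.02. Oas1a stood at −0.04 and −0.13 and then at −1.51, −1.75 and −2.27.

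The day 0 arrays lay close together in Oasl2, Ifi44 and Oas1a, the 3 members that were lower at an unadjusted p under 0.05. With either day 0 array left out, 2 were. Gbp2, Irgm1 and Bst2, also induced by interferon, overlapped between the groups. Bst2 stood at 1.28 and 1.56 at day 0 and at 1.33, 1.85 and 1.0 at day 14.

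**Figure D4:**
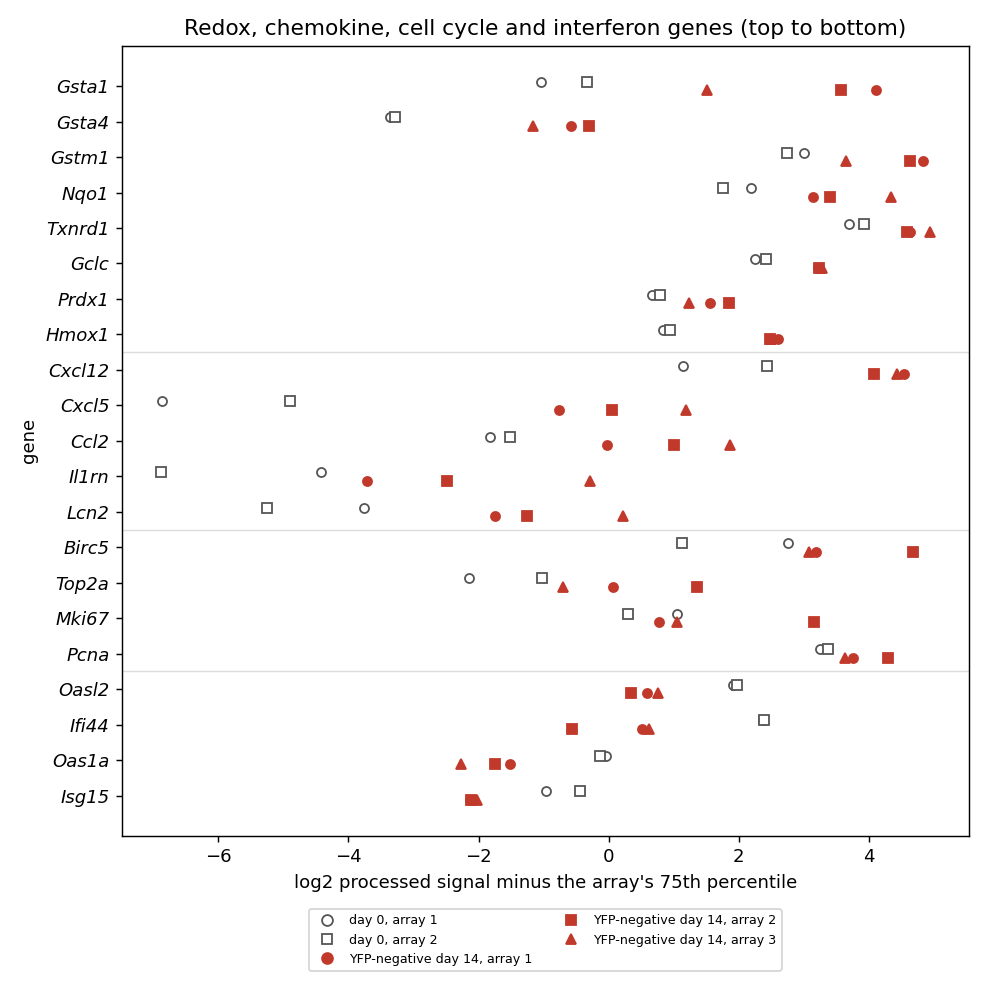
Level on each array (horizontal axis, log2 processed signal minus the array's 75th percentile) of selected antioxidant, chemokine, cell cycle and interferon-induced genes, from top to bottom; open symbols are day 0 and filled symbols YFP-negative day 14. Oasl2 at day 14 lay between 0.34 and 0.75 against 1.91 and 1.97 at day 0, while Cxcl5 lay between −0.77 and 1.19 against −6.87 and −4.90.

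Of 20 cell cycle genes, 11 were higher on all day 14 arrays and 2 lower, with a median difference of 1.09 and 3 higher at an unadjusted p under 0.05. Without day 14 array 2 the median was 0.55 and 1 gene was higher at that p, and without day 14 array 3 it was 7 genes. With the mean of all probes of a gene the median was 0.57. Aurkb, the mitotic kinase of the chromosomal passenger complex, was not well above background on either day 0 array and stood at −4.25, −3.19 and −4.30 at day 14, where it was at least 14.3-fold higher by the bound used for Cthrc1. That bound is 3.83 on the log2 scale, and after normexp correction the difference of Aurkb was 1.20. Birc5, survivin, of the same complex, stood at 2.75 and 1.13 at day 0 and at 3.19, 4.67 and 3.08 at day 14 (difference 1.71 ± 0.61, SE; limma, adjusted p = 0.406). Mki67, a nuclear protein of dividing cells, overlapped, at 1.06 and 0.30 and then at 0.78, 3.15 and 1.04. Day 14 array 2 was the highest of the 5 arrays in these 3 genes. It had the highest erythroid mean too (1.88), and the part of dividing red cell precursors was not tested.

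The cell cycle homology region, TTTGAA on either strand, is a promoter element known from genes of mitosis. It was found in 6 of the 18 list members with a RefSeq promoter of 250 bases, against 15.99% of 32851 promoters. Top2a, topoisomerase II alpha, was the 1 member at an unadjusted p under 0.05 that held it, and it is printed for that reason, chosen after its values were seen. It stood at −2.14 and −1.03 at day 0 and at 0.06, 1.35 and −0.71 at day 14, with 2 of its 3 probes in that direction. The promoter holds TTTGAA from base −179 and, on the opposite strand, TTCAAA from base −23, both in capitals.
Top2a, GRCm38.p6 chr11:99024190-99024439, minus strand: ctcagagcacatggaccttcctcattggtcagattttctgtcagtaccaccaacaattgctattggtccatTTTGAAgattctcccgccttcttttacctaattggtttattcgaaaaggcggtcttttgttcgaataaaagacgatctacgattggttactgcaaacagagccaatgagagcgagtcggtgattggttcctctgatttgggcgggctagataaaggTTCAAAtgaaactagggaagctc

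Signalling genes were mixed. Of 20 genes of TGF-beta and activin signalling, 6 were higher on all day 14 arrays and 1 lower, with a median of 0.49 and 3 higher at an unadjusted p under 0.05. With slide as a fixed block 0 were higher at that p (limma, 0 past the adjusted threshold too), and the median was 0.31. The 3 were secreted proteins. Ctgf (now Ccn2), a matricellular target of TGF-beta, stood at 2.60 and 1.39 at day 0 and at 4.24, 4.19 and 4.81 at day 14 (difference 2.42 ± 0.74, SE; limma, adjusted p = 0.361). Ltbp2, of the family of proteins that bind latent TGF-beta, stood at −2.95 and −2.32 and then at 0.31, −0.06 and 1.72. Thbs1, thrombospondin, which can activate latent TGF-beta, stood at −3.54 and −2.89 and then at −1.07, −1.61 and 1.44. The ligand gene Tgfb1 overlapped, at −3.67 and −2.46 and then at −2.73, −2.20 and −3.79.

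The lists of Notch, hedgehog, Wnt and PDGF, FGF and VEGF genes had medians of −0.22, −0.48, −0.60 and −0.25, near the −0.39 of all genes. Each of the 4 medians changed sign under median scaling or quantile normalization. Gli1, the transcription factor induced by hedgehog, stood at −4.17 and −4.59 at day 0 and at −5.77, −7.23 and −5.46 at day 14 (unadjusted p = 0.0144, limma). Hhip, an inhibitor that binds hedgehog ligands, stood the other way, at −7.34 and −4.33 and then at −3.92, −2.46 and −1.75. Wif1, an inhibitor of Wnt ligands, was well above background on both day 0 arrays and on none of the day 14 arrays, at least 2.49-fold lower, with a difference of −0.81 after normexp correction. Of 16 immediate early and stress genes 4 were higher on all day 14 arrays. Among them Myc stood at −0.62 and −0.49 at day 0 and at 1.11, 1.5 and 2.19 at day 14 (difference 2.16 ± 0.51, SE; limma, adjusted p = 0.209). Fos, Jun and Egr1, which dissociation of tissue is known to induce, overlapped between the groups. Egr2, of the same list, was higher in all 16 alternative settings, by 0.16 to 2.87 log2 units. At an unadjusted p under 0.05 (limma), 2 of the 16 list members were higher and 0 lower, against 2.41% and 9.12% of all genes.

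**Figure D5:**
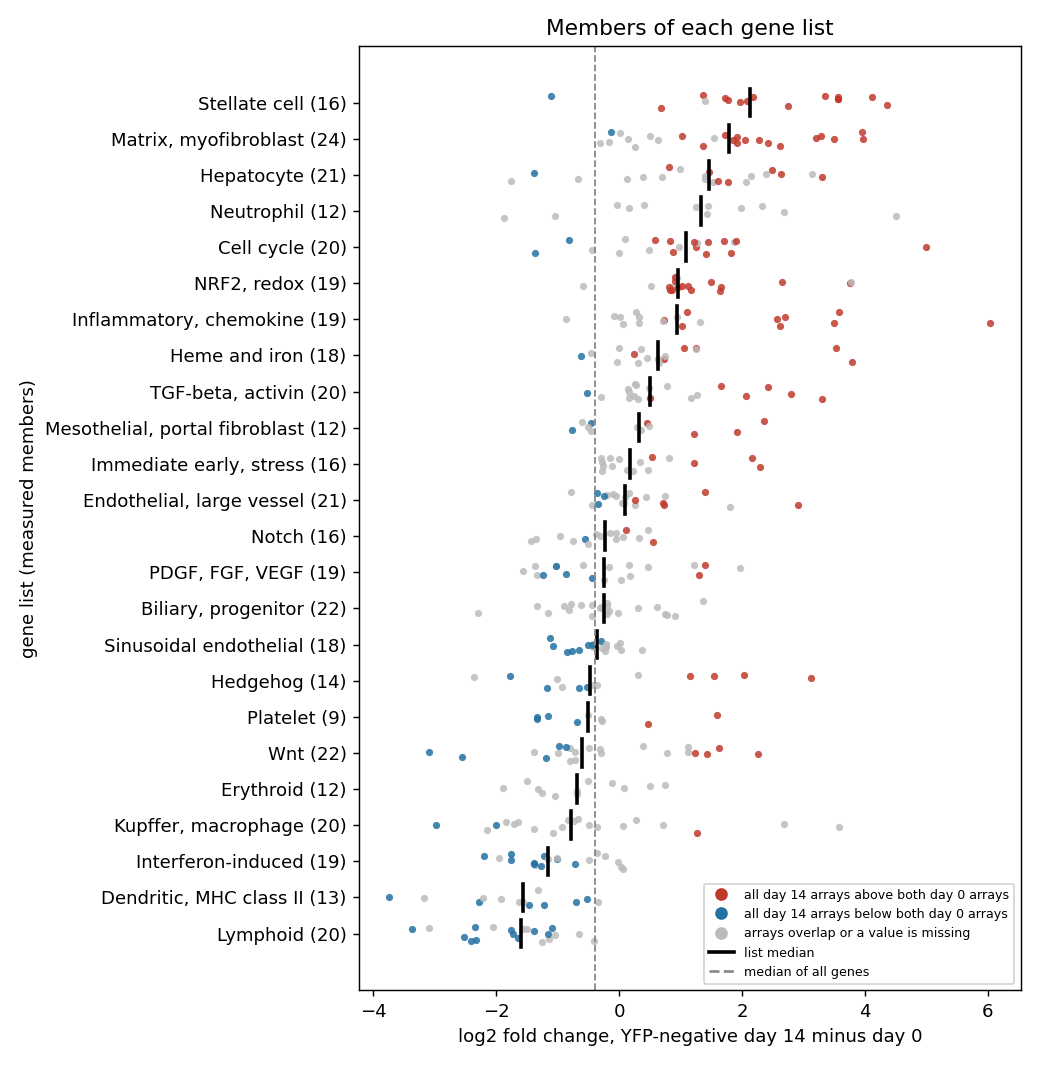
Log2 difference of every measured list member, YFP-negative day 14 minus day 0 (horizontal axis), by list with the number measured in parentheses; red and blue points had all day 14 arrays above or below both day 0 arrays, black bars are list medians and the dashed line is the median of all genes. The stellate list had a median of 2.13 and the lymphoid list one of −1.60.

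The 7 genes that fell past the adjusted threshold were detected at day 0 and not well above background on any day 14 array, so their folds are lower bounds, computed like those above. Trhr, the receptor of thyrotropin-releasing hormone, stood at −3.94 and −3.03 at day 0 and at −9.80, −10.10 and −10.09 at day 14. It was at least 23.0-fold lower (limma, adjusted p = 5.97e-05), with its probe at chr15:44066781-44066840. Opn1mw, a cone opsin, stood at −4.50 and −5.86 and then at −9.81, −9.94 and −9.97, at least 7.1-fold lower (limma, adjusted p = 0.000363). EG208426, now Iqcj, was at least 11.1-fold lower, and the olfactory receptor gene Olfr1324 at least 4.63-fold lower. The other 3, AK089607, AK043425 and AK040771, carry only clone names. After normexp background correction limma called 0 genes in either direction (585 higher and 955 lower at an unadjusted p under 0.05), and the difference of Trhr was −2.21, while the bound above amounts to 4.52 log2 units. That of Opn1mw was −1.23 and that of Olfr1324 −1.09, so these bounds too hold for the processed signal only. The offset of 50 in that correction keeps dim signals from falling further, so its values and calls cannot decide how large these falls were. That setting also started from the mean spot signal and its local background, and the part of each change was not tested. Lrg1, which is not dim, did not pass there either, and the reason was not tested.

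Trhr was low in the other sorted groups as well. It lay between −10.21 and −9.63 in YFP-negative cells at day 3, between −8.46 and −6.42 at day 7, and between −9.67 and −9.60 in YFP-positive cells at day 14. The remaining falls of the 10 named genes with the smallest p did not pass the adjusted threshold. Tbx18, a transcription factor of mesothelial and perivascular lineages, was at least 12.2-fold lower and Gpr37, an orphan receptor, at least 10.3-fold lower (limma, adjusted p = 0.0799 and 0.111), with differences of −1.63 and −1.65 after normexp correction. The other 5 were the olfactory receptor genes Olfr39, Olfr967, Olfr869 and Olfr495 and the potassium channel gene Kcnj3. Olfr967 stood at −2.71 and −2.44 at day 0 and at −5.28, −7.34 and −6.00 at day 14.

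Olfactory receptor genes, which serve smell in the nasal epithelium, were summed up as a family, a list added after these values were seen. Of 845 genes measured, 509 were lower on all day 14 arrays and 0 higher, with a median difference of −1.59. After quantile normalization 179 were lower and 46 higher, with a median of −0.59, and after normexp correction the median was −0.82. The share of the family well above background was 90.5% and 87.1% on the day 0 arrays and 78.9%, 51.0% and 71.0% on the day 14 arrays. Their median level was −4.56 and −5.47 at day 0 and −5.85, −7.69 and −6.53 at day 14. The spread of signals moved with it: the 75th percentile exceeded the median probe by 2.25 and 2.43 log2 units at day 0 and by 2.79, 2.95 and 2.49 at day 14. The part of that spread in the low values was not tested.

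In the authors' deposited table of the same comparison, 645 probes had a positive fold change and 45 a negative one at a false discovery rate under 5%. Trhr had a fold change of −17.857 there, at a false discovery rate of 13.45%, and Oasl2 one of −2.457 at 11.07%. Postn had a fold change of 13.93 in the authors' deposited table at 3.59%, and Col1a1 one of 5.942 at 4.54%. The table does not give the test or the samples behind its values.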

How the data were processed

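RNA was amplified with the NuGEN WT-Ovation Pico system and labelled with Cy3, per the labels' protocols. Each sample was read on a 1-colour Agilent array. The deposited scanner files hold spot intensity, background-subtracted and detrended by Feature Extraction 10.5.1.1 per the file headers; the submitters' processing notes name version 9.53. The deposited table of comparisons gives a score per probe, the authors' signed fold change and its false discovery rate in percent, with the test not given in the sources used here.

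From the intensity of 43379 non-control spots, log2 values minus each array's 75th percentile were computed (R 4.3.3, limma 3.58.1). Outlier spots were left out (1583 values), and each gene took its probe of highest mean. Probes had to be well above background on at least 2 of the 20 arrays, of any group, so a gene could enter through arrays outside the comparison. The fit (lmFit, eBayes) used all 20 arrays of 7 groups, 26647 genes and 13 residual degrees of freedom; 277 genes lacked a value on some array and were fitted without it. All 20 arrays had 1 scan date. Slides were read from a code in the names of the scanner files and renumbered here in sorted order. By that reading, day 0 arrays lay on slides 1 and 3 and day 14 arrays on slides 4, 6 and 7. A slide term therefore rests on the other groups. The number of arrays limits the precision.

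The rule for named genes took those past the threshold, the 10 smallest p in each direction among genes with a gene name where fewer than 5 passed, and the first 2 measured members of each list. Since no list member passed, further members were named after their values were seen. The comparison, the 24 gene lists (422 of 425 genes measured) and the tests were chosen with earlier results of these data known. Symbols were updated through RefSeq (16246 genes by accession, 2385 by symbol, 859 by synonym, 7157 unmatched). Promoters came from RefSeq on GRCm38.p6. The pipeline was tested on simulated data. Expression of Foxl1 and of some genes that the rule names is not reported here.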

Additional observations from a re-analysis of the deposited data

How the results depend on the processing

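Of 102 genes named by rule, 79 kept their direction in all 16 alternative settings and 23 changed it in at least 1. The counts past the adjusted threshold were small and moved (limma throughout). For genes higher, against 2, normexp background correction, a fit on only the 5 arrays, slide as a fixed block and a replicate block gave 0 each (585, 995, 605 and 569 at an unadjusted p under 0.05), and an intensity trend gave 5. For genes lower, against 7, normexp, only the 5 arrays and slide as a fixed block gave 0 each (955, 3265 and 1040 unadjusted), quantile normalization 3, and an intensity trend and the replicate block 4 each. Leaving out 1 array gave 0 to 5 genes higher and 4 to 50 lower, the 5 and the 50 both without day 0 array 2. The same replicate numbers in both groups are not said to pair samples, and deviations of same-numbered arrays correlated at 0.06 and 0.14 over 2 pairs. Day 0 array 1 and day 14 array 3, of unlike number, correlated at 0.07. With only 2 day 0 arrays the deviations of 1 mirror those of the other, so these values cannot decide pairing. With slide as a fixed block the list medians were 0.88 for matrix, 1.47 for stellate, 0.40 for large vessel endothelium, 0.19 for sinusoidal, −0.58 for PDGF, FGF and VEGF, −3.49 for dendritic, −1.87 for biliary, −2.41 for Kupffer, −1.99 for neutrophil, −2.60 for lymphoid and −0.52 for mesothelial genes. With median scaling they were 1.36 for antioxidant, 0.50 for large vessel endothelium, 0.16 for PDGF, FGF and VEGF, −0.075 for hedgehog, 0.73 for mesothelial, 0.18 for Notch and −0.10 for platelet genes. With quantile normalization they were 0.10 for Wnt, 0.022 for hedgehog, 0.47 for platelet and −0.59 for olfactory receptor genes. Leaving out 1 array gave medians of 0.082 to 0.30 for large vessel endothelium, −0.80 to 0.0049 for Wnt and −0.11 to 0.60 for mesothelial genes. Where a value moved, the cause was not tested. The dim range limits the falls, whose day 14 signals were not well above background.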
